A study of Mus musculus with 10 samples.

Results

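The 8 genes described here form the core of the type 1 helper (Th1) programme: Ifng, the cytokine, the transcription factors Tbx21, Eomes and Hlx, and the receptor genes Il12rb1, Il12rb2, Il18r1 and Il18rap. ATAC-seq was used to read how open their chromatin is: a transposase inserts adapters where DNA is exposed, and the reads falling in a peak report how open that stretch is. The members were chosen by name: every peak whose gene symbol in the authors' annotation was one of the 8 was taken, which gave 44 of 61581 peaks and 8 of 14287 gene symbols. Peaks carry the name of the nearest gene, which does not show which gene a peak acts on.

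All 10 libraries came from naive T cells (CD3+, CD4+, CD25-, CD44 low or negative) of spleen and lymph node, with 60000 cells per library. All mice had the genotype Satb1fl/fl x CD4-CreERT2wt/+, that is floxed alleles of the chromatin organiser Satb1 and a tamoxifen-dependent Cre recombinase named for CD4. The KO group consisted of 5 libraries from mice given tamoxifen, and the group called WT consisted of 5 libraries from untreated mice of that same floxed, Cre-carrying genotype. The effects of tamoxifen and of Satb1 deletion therefore cannot be told apart. The labels give no age, sex, tamoxifen dose or interval, and do not say whether libraries came from separate animals, and a p-value here therefore measures library-to-library spread, which may be technical. The series' title concerns Satb1, Il2 accessibility and early Th17 differentiation, and the comparison made here is KO against WT at the Th1 genes.

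Th1 cells are the helper T cells that secrete interferon-gamma and activate macrophages. Naive CD4 T cells have not yet taken up a helper fate. In the textbook account, T-cell receptor and interferon-gamma signals induce T-bet, the product of Tbx21, which opens the Ifng locus and raises Il12rb2. IL-12 then acts through its receptor chains and STAT4, and IL-18 acts through IL-18R1 and the accessory chain IL18RAP. Ifng is surrounded by conserved non-coding enhancers on both sides of the gene.

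Counts in peaks ranged from 673398 in Sample_2270_KO to 2184717 in Sample_2272_KO, and the median peak held 5 to 17 counts in a library. The members held 307 to 1045 counts in a library, 0.0418% to 0.0505% of all counts in peaks. Satb1 itself was higher in KO over its 26 peaks, with 428 ± 12.0 CPM against 373 ± 15.6 CPM in WT (SD, n = 5; edgeR adjusted p = 0.0245). The labels do not say which exons are floxed, so these peaks do not check the deletion. Some libraries of 1 group differed by less than counting noise: Sample_2268_KO and Sample_2270_KO, Sample_2271_KO and Sample_2272_KO, Sample_2274_WT and Sample_2275_WT, and each pair among Sample_2273_WT, Sample_2276_WT and Sample_2277_WT. Whether these are repeat libraries of 1 source is not stated. Results are given with all 5 libraries per group and, for each member peak that passed the test, also with each such set counted as 1 sample. The merged fit has fewer samples per group, and Sample_2269_KO is its only unmerged library.

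The sequences just upstream of 4 start sites are shown because they set the frame for the peaks below: Ifng, whose start site had no peak, Il12rb2 and Il18r1, whose start-site peaks did not pass the test while an intronic peak of each did, and Tbx21, the factor of the lineage. Each is the 250 bases before the annotated start, 5′ to 3′ on the strand of the gene, from RefSeq (GRCm38.p6, the assembly also called mm10). For Il12rb2 this RefSeq start lies upstream of chr6:67376137, the start from which its peak distances are measured. Capitals mark a match to TTCNNNGAA, the form that STAT factors are known to bind.
Ifng, chr10:118440796-118441045, plus strand: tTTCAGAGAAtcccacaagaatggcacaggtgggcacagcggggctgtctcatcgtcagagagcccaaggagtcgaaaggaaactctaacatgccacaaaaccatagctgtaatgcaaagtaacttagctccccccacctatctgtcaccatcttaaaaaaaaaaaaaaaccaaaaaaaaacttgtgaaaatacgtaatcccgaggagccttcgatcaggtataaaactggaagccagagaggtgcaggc
Tbx21, chr11:97115332-97115581, minus strand: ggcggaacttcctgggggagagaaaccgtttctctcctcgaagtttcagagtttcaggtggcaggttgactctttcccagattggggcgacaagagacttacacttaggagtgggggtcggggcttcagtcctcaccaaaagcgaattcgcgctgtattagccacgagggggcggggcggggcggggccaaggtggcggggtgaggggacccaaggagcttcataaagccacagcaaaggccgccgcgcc
Il12rb2, chr6:67376189-67376438, minus strand: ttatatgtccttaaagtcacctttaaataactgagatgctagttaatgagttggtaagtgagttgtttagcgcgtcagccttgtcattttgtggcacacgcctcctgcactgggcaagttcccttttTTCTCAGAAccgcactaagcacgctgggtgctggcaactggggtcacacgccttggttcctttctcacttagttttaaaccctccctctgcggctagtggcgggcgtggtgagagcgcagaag
Il18r1, chr1:40465302-40465551, plus strand, the first of its annotated starts: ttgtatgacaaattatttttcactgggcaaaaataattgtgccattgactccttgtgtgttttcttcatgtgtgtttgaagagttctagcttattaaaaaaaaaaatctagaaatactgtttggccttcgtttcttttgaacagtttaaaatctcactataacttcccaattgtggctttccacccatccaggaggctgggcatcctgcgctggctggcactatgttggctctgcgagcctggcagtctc
The Ifng window overlapped no peak, while the Il12rb2 window shared 147 bases, the Il18r1 window 104 bases and the Tbx21 window 86 bases with a start-site peak of the gene. The RefSeq table matched 7 of the 8 genes. The motifs searched on both strands were AGGTGTGA (T-box), TTCNNNGAA (STAT), TGTGGT (RUNX), TGANTCA (AP-1) and ATTAATAA (an AT-rich run). Over all 32851 windows of 250 bases in the table, some of them of 1 gene, a match was present in 1.12%, 7.02%, 14.0%, 6.75% and 0.892%, in that order. The STAT form was found 249 bases before the start of Ifng and 123 bases before the RefSeq start of Il12rb2. It was also found 219 and 152 bases before the third annotated start of Il18r1, and ATTAATAA 124 bases before the start of Eomes. The windows of Tbx21, Hlx and Il18rap and the window of Il18r1 printed here held none of the 5 forms. These are matches of letters in 1 window and no measure of binding.

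Of the 44 member peaks, 16 were annotated as promoter and 28 lay outside promoters, 19 of them distal intergenic and 6 intronic. Ifng and Il12rb2 had 8 peaks each, Il12rb1, Il18r1 and Eomes 6 each, Tbx21 5, Hlx 3 and Il18rap 2. Only 23 of the 44 had enough counts to be tested singly (edgeR's filter, about 6.27 CPM in 5 libraries), and the other 21, among them all 3 Hlx peaks, entered the gene sums alone. Levels are given as CPM, counts scaled to a fixed total of reads in tested peaks after TMM correction. Values are listed from Sample_2268_KO to Sample_2272_KO and from Sample_2273_WT to Sample_2277_WT, with mean ± SD over n = 5. A log2 fold change above 0 means more signal in KO, and its SE is approximate.

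Among the 23 tested member peaks, 3 were higher in KO and 1 was lower (edgeR quasi-likelihood test, Benjamini-Hochberg adjusted p under 0.05 over all 34910 tested peaks). Over all tested peaks, 3.85% passed: 2.94% were higher and 0.911% lower. The 3 peaks that rose were 2 peaks upstream of Ifng and 1 in an intron of Il18r1, and the peak that fell lay in an intron of Il12rb2. All 4 lay outside promoters, where 17 member peaks were tested and where 5.8% of all tested peaks passed, 4.39% higher and 1.4% lower. None of the 6 tested member promoter peaks passed (edgeR), beside 1.6% of all tested promoter peaks. None had an unadjusted p under 0.05, beside 1394 of all 16147 tested promoter peaks. The median log2 fold change of the 23 was 0.05, with 13 above and 10 below 0, beside -0.0058 for all tested peaks. One tested peak, Ifng -27923, passed the count filter through KO libraries alone, so these counts describe the tested members and carry no set test.

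**Figure D1:**
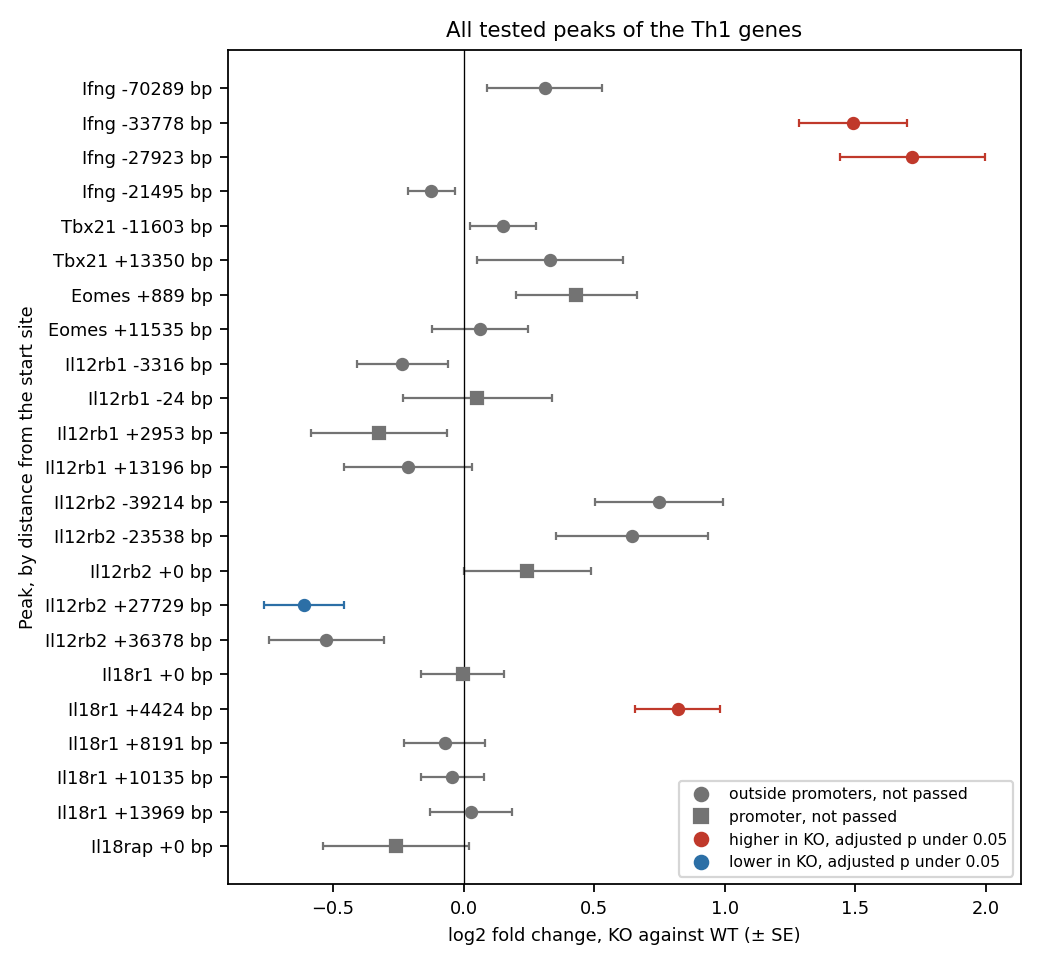
Log2 fold change (KO against WT, x axis) with its SE (bars) for each of the 23 tested peaks of the Th1 genes, named on the y axis by gene and distance in bp from the start site. The 3 peaks that rose and the 1 that fell are coloured, and none of the 6 promoter peaks (squares) is past the threshold.

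The 2 largest changes were upstream of Ifng (chr10:118441046-118445894, plus strand; gene number 15978), which encodes the cytokine interferon-gamma. The first peak, 33778 bp upstream of the start site (chr10:118406869-118407268, distal intergenic), had 24.0, 14.6, 23.3, 28.2 and 20.0 CPM in KO libraries and 8.69, 6.07, 7.31, 10.0 and 8.78 CPM in WT libraries. Every KO library lay above every WT library. The means were 22.0 ± 5.07 CPM in KO and 8.17 ± 1.51 CPM in WT, a log2 fold change of 1.49 ± 0.21 and a 2.81-fold level in KO (edgeR adjusted p = 7.29e-08). Groups did not overlap in this way, with KO above WT, in 2.78% of all tested peaks.

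The second peak, 27923 bp upstream (chr10:118412896-118413123, distal intergenic), had 20.0, 16.7, 10.0, 13.8 and 11.0 CPM in KO libraries and 2.17, 3.86, 3.13, 6.43 and 5.40 CPM in WT libraries. These levels rest on 6 to 26 counts per KO library and 2 to 9 per WT library. KO again lay above WT in every library, with means of 14.3 ± 4.12 CPM and 4.20 ± 1.72 CPM. This peak entered the test through KO libraries alone: 5 KO and 0 WT libraries were over the count filter. Its separation and fold are therefore not independent of that filter. The log2 fold change was 1.72 ± 0.28, a 3.29-fold level (edgeR adjusted p = 2.81e-06). In bulk samples, a site open in more cells and a site more open in each cell cannot be told apart. With sets of libraries within counting noise counted once, the edgeR adjusted p was 4.61e-07 for the first peak and 7.52e-06 for the second.

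The strongest and widest peak of the locus did not pass. It lay 21495 bp upstream (chr10:118418891-118419551, 661 bp wide), with 80.0, 72.0, 65.0, 76.0 and 70.9 CPM in KO libraries and 81.5, 80.6, 85.1, 71.5 and 81.1 CPM in WT libraries. The ranges of the groups overlapped. The means were 72.8 ± 5.64 CPM and 80.0 ± 5.06 CPM, a log2 fold change of -0.12 ± 0.09 (edgeR adjusted p = 0.618). The farthest upstream peak, 70289 bp away (chr10:118370525-118370757), had 15.2, 16.7, 20.0, 14.9 and 9.98 CPM in KO libraries and 13.0, 9.38, 7.31, 13.6 and 16.2 CPM in WT libraries. It did not pass either, at 0.31 ± 0.22 (edgeR adjusted p = 0.595). The other 4 Ifng peaks, all downstream of the start site by 28121 to 45844 bp, held a mean of 3.8 to 4.1 counts and were not tested. No Ifng peak was annotated as promoter.

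The makeup of the Ifng signal can be read from these peaks, as a description that uses the 2 peaks found by the test. The peak 21495 bp upstream held 54.9%, 54.3%, 48.8%, 51.3% and 58.4% of the summed Ifng signal in KO libraries. It held 71.4%, 71.6%, 74.4%, 63.3% and 66.7% in WT libraries. The means were 53.5% ± 3.70 and 69.5% ± 4.44 (SD, n = 5). This difference in share follows from the choice of the 2 peaks that rose and is no further result, since the level of the peak itself overlapped between the groups. The 2 peaks that rose together held 26.5% ± 2.68 in KO and 10.7% ± 2.41 in WT, that is 36.3 ± 6.21 and 12.4 ± 2.82 CPM. The other 5 peaks held 19.9% ± 4.63 and 19.8% ± 2.29.

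**Figure D2:**
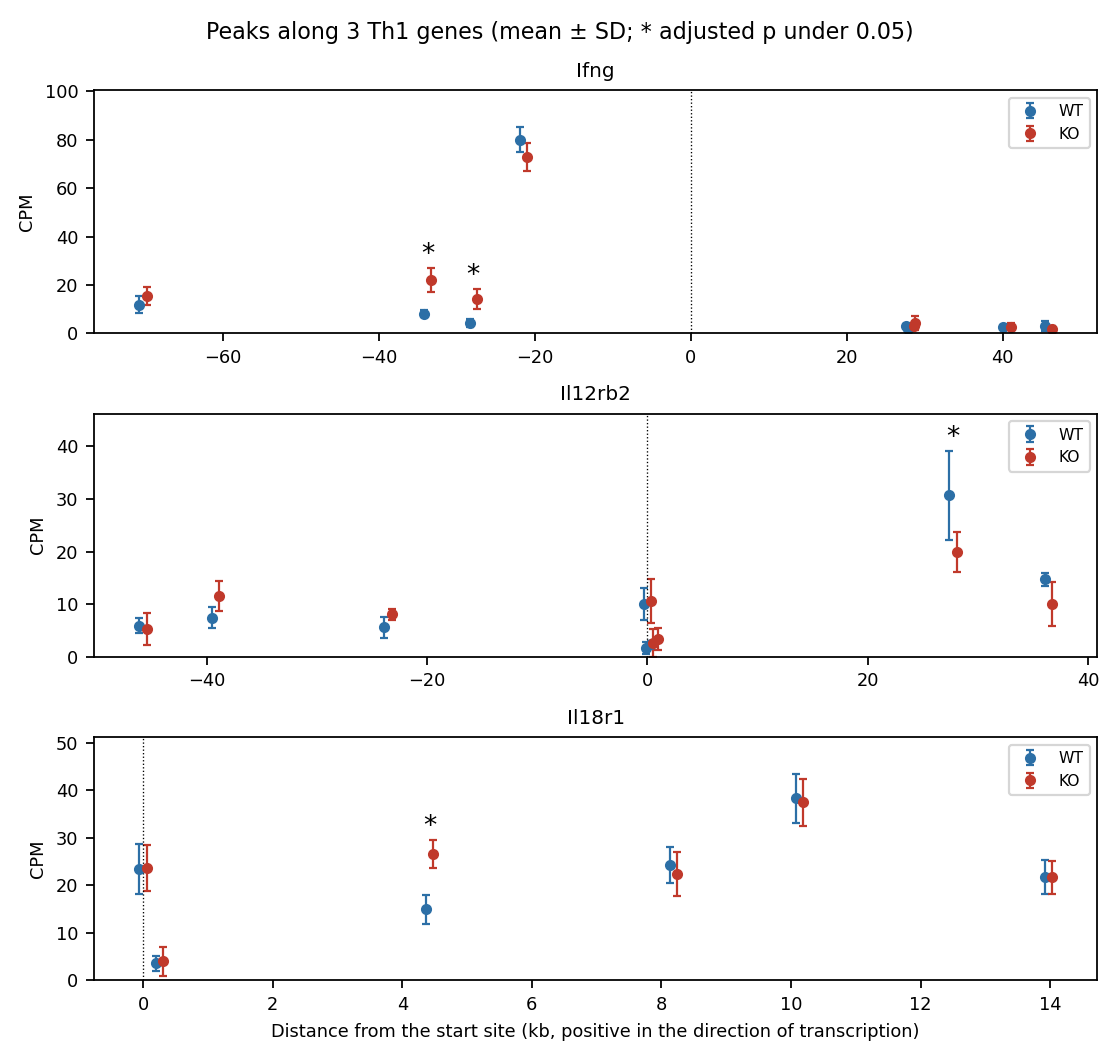
Mean level with SD (CPM, y axis, n = 5 libraries per group) of every peak of Ifng, Il12rb2 and Il18r1 against its distance from the start site (kb, x axis, positive in the direction of transcription), KO in red and WT in blue. Asterisks mark the 4 peaks that passed the test: 2 upstream of Ifng and 1 in Il18r1 with KO above WT, and 1 in Il12rb2 with KO below WT.

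Summed over its 8 peaks, Ifng had 146, 132, 133, 148 and 121 CPM in KO libraries and 114, 113, 114, 113 and 122 CPM in WT libraries. The WT sums were close together except for Sample_2277_WT, which lay just above the lowest KO library, Sample_2272_KO. The means were 136 ± 11.0 CPM and 115 ± 3.70 CPM, a log2 fold change of 0.24 ± 0.07, which missed the threshold over all 12489 tested genes (edgeR unadjusted p = 0.00133, adjusted p = 0.0577). Leaving out each library in turn gave log2 fold changes from 0.19 (without Sample_2271_KO, edgeR adjusted p = 0.282) to 0.30 (without Sample_2272_KO, adjusted p = 0.0193, the only one of these fits that passed), and thinning all libraries to the smallest total gave 0.16 (edgeR adjusted p = 0.708). None of the 8 member genes passed as a sum, in edgeR, DESeq2 or limma-voom. Ifng and Tbx21 had an unadjusted p under 0.05 in edgeR, as did 1556 of all 12489 tested genes. At an adjusted p under 0.05, 2.19% of all tested genes passed.

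**Figure D3:**
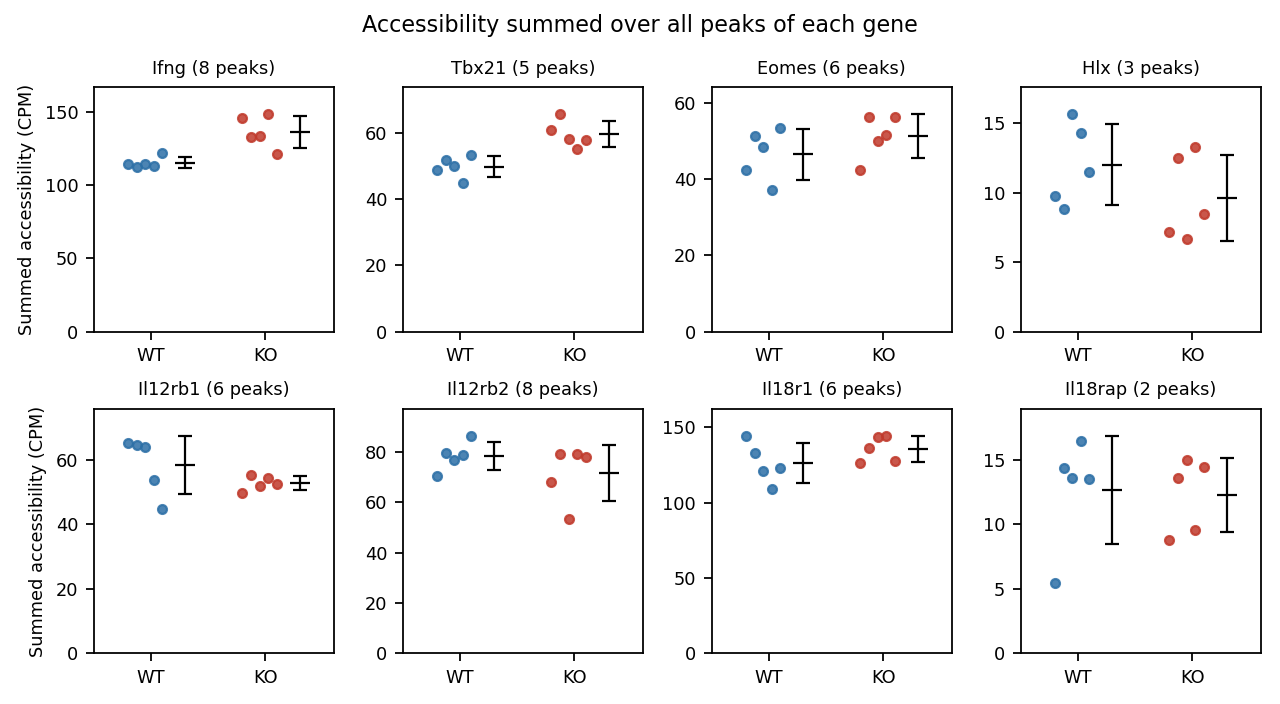
Accessibility summed over all peaks of each of the 8 Th1 genes (CPM, y axis from 0), 1 point per library with mean and SD beside it, for WT (blue) and KO (red), n = 5 each. Groups are separate for Tbx21, meet at 1 library for Ifng and overlap for the other 6 genes.

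Among the transcription factors, Tbx21 (chr11:97098007-97115331, minus strand), which encodes the Th1 master regulator T-bet, had summed levels of 60.8, 65.7, 58.3, 55.3 and 57.9 CPM in KO libraries and 48.9, 51.9, 50.1, 45.0 and 53.4 CPM in WT libraries. Every KO library lay above every WT library, as in 2.1% of all tested genes. The means were 59.6 ± 3.93 CPM and 49.9 ± 3.19 CPM, but the log2 fold change of 0.23 ± 0.10 did not pass (edgeR unadjusted p = 0.0262, adjusted p = 0.295), and with all libraries thinned to the smallest total it was -0.04. No single Tbx21 peak passed. The main peak, 11603 bp upstream (chr11:97126934-97127439), had 40.0, 42.8, 38.3, 31.4 and 30.9 CPM in KO libraries and 32.6, 34.2, 28.7, 29.3 and 33.8 CPM in WT libraries. The groups overlapped, and its log2 fold change was 0.15 ± 0.13 (edgeR adjusted p = 0.704). A peak in exon 2 of 6, 13350 bp into the gene (chr11:97101819-97101981), had 7.20, 7.30, 10.0, 7.98 and 8.98 CPM in KO libraries and 4.35, 7.73, 8.88, 4.29 and 5.40 CPM in WT libraries, at 0.33 ± 0.28 (edgeR adjusted p = 0.684).

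Eomes (chr9:118478189-118486132, plus strand) encodes eomesodermin, the T-box relative of T-bet best known from CD8 T cells and NK cells. Its sums were 42.4, 56.3, 50.0, 51.6 and 56.4 CPM in KO libraries and 42.4, 51.3, 48.6, 37.2 and 53.4 CPM in WT libraries. The ranges largely coincided, and the log2 fold change of 0.13 ± 0.11 did not pass (edgeR adjusted p = 0.697). The tested peak nearest to its start, 889 bp into the gene and annotated as promoter (chr9:118479078-118479335), was also its peak with the smallest p. It had 10.4, 18.8, 11.7, 10.1 and 16.0 CPM in KO libraries and 12.0, 13.2, 10.4, 6.43 and 6.76 CPM in WT libraries, at 0.43 ± 0.23 (edgeR adjusted p = 0.411).

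Hlx (chr1:184727143-184732493, minus strand) encodes a homeobox factor that acts with T-bet on Ifng. It had the lowest summed signal of the 8 genes, with 7.20, 12.5, 6.67, 13.3 and 8.48 CPM in KO libraries and 9.78, 8.83, 15.7, 14.3 and 11.5 CPM in WT libraries. The groups overlapped, and the log2 fold change was -0.29 ± 0.24 (edgeR adjusted p = 0.691).

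The IL-12 receptor consists of the chains encoded by Il12rb1, which IL-23 signalling also uses, and Il12rb2, the chain that couples to STAT4. Il12rb2 (chr6:67292018-67376137, minus strand) held the only member peak that fell. It lay in intron 7 of 15, 27729 bp into the gene (chr6:67348033-67348408), with 18.4, 21.9, 15.0, 25.0 and 19.5 CPM in KO libraries and 16.3, 31.5, 31.9, 37.2 and 36.5 CPM in WT libraries. The KO libraries lay below 4 of the 5 WT libraries, and Sample_2273_WT lay among the KO libraries. The means were 20.0 ± 3.75 CPM and 30.7 ± 8.44 CPM, a log2 fold change of -0.61 ± 0.15 and a 0.655-fold level (edgeR adjusted p = 0.00622). With sets of libraries within counting noise counted once, the edgeR adjusted p was 0.00727. That merging sums Sample_2273_WT with Sample_2276_WT and Sample_2277_WT, so its low value does not count singly there. The merged fit therefore cannot check how far the fall depends on this library. Under DESeq2, with all libraries kept apart, the peak did not pass (adjusted p = 0.127).

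The other tested Il12rb2 peaks did not pass, and their log2 fold changes lay on both sides of 0. The upstream peak at 39214 bp (chr6:67415351-67415559) had 10.4, 10.4, 8.33, 13.3 and 15.5 CPM in KO libraries and 6.52, 8.83, 5.75, 5.72 and 10.1 CPM in WT libraries, at 0.75 ± 0.25 (edgeR adjusted p = 0.0674). Leaving out each library in turn gave edgeR adjusted p from 0.0456 (without Sample_2277_WT, log2 fold change 0.86) to 0.331. The start-site peak (chr6:67376032-67376335), whose upstream sequence is printed above, had 10.4, 13.6, 5.00, 8.51 and 15.5 CPM in KO libraries and 15.2, 9.38, 8.88, 9.29 and 7.43 CPM in WT libraries, at 0.24 ± 0.24 (edgeR adjusted p = 0.751). Summed over its 8 peaks, Il12rb2 had 68.0, 79.3, 53.3, 79.2 and 77.8 CPM in KO libraries and 70.6, 79.5, 76.8, 78.6 and 86.5 CPM in WT libraries. Its sums overlapped, with Sample_2270_KO the lowest, and the log2 fold change was -0.09 ± 0.09 (edgeR adjusted p = 0.768).

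Il12rb1 (chr8:70808449-70821424, plus strand) had sums of 49.6, 55.3, 51.7, 54.2 and 52.4 CPM in KO libraries and 65.2, 64.6, 63.7, 53.6 and 44.6 CPM in WT libraries. The WT libraries spread more widely than the KO libraries, on both sides of them, and the log2 fold change of -0.15 ± 0.10 did not pass (edgeR adjusted p = 0.604). Its tested peak nearest to the start, 24 bp upstream (chr8:70808337-70808425), had 8.80, 3.13, 8.33, 6.91 and 7.98 CPM in KO libraries and 7.61, 8.83, 7.31, 5.72 and 4.73 CPM in WT libraries, at 0.05 ± 0.29 (edgeR adjusted p = 0.970). Its peak with the smallest p, 3316 bp upstream (chr8:70804938-70805133), had 14.4, 22.9, 16.7, 14.9 and 18.0 CPM and 23.9, 18.8, 24.0, 17.9 and 16.2 CPM in KO and WT libraries, at -0.24 ± 0.17 (edgeR adjusted p = 0.627).

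The IL-18 receptor genes are neighbours on chromosome 1. Il18r1 (chr1:40465552-40500854, plus strand) encodes the chain that binds IL-18. A peak in its intron 2 of 9, 4424 bp into the gene (chr1:40469976-40470246), had 24.0, 25.0, 26.7, 25.5 and 31.4 CPM in KO libraries and 15.2, 15.5, 19.3, 10.7 and 14.2 CPM in WT libraries. Every KO library lay above every WT library. The means were 26.5 ± 2.91 CPM and 15.0 ± 3.08 CPM, a log2 fold change of 0.82 ± 0.16 and a 1.77-fold level (edgeR adjusted p = 2.71e-04, and 0.00155 with sets of libraries within counting noise counted once).

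The rest of Il18r1 did not pass. Its start-site peak (chr1:40465448-40465757), whose upstream sequence is printed above, had 19.2, 24.0, 31.7, 22.9 and 20.5 CPM in KO libraries and 31.5, 18.2, 20.4, 21.4 and 25.7 CPM in WT libraries, a fold of 0.998 (edgeR adjusted p = 0.998). Of the peaks deeper in the gene, that at 8191 bp (chr1:40473743-40474031) had 20.8, 24.0, 18.3, 29.8 and 19.0 CPM in KO libraries and 27.2, 27.0, 24.6, 17.9 and 24.3 CPM in WT libraries, at -0.07 ± 0.15 (edgeR adjusted p = 0.911). Those at 10135 and 13969 bp had edgeR adjusted p of 0.937 and 0.971. The gene sums were 126, 137, 143, 144 and 128 CPM in KO libraries and 145, 133, 121, 109 and 123 CPM in WT libraries, which overlapped, with a log2 fold change of 0.11 ± 0.07 (edgeR adjusted p = 0.601).

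Il18rap (chr1:40515362-40551705, plus strand) encodes the accessory chain needed for IL-18 signalling. Its 2 peaks summed to 8.80, 13.6, 15.0, 9.57 and 14.5 CPM in KO libraries and 5.43, 14.4, 13.6, 16.4 and 13.5 CPM in WT libraries. The groups overlapped, with Sample_2273_WT the lowest, and the log2 fold change was -0.15 ± 0.23 (edgeR adjusted p = 0.869). Its start-site peak (chr1:40515276-40515432) had 5.60, 4.17, 8.33, 6.91 and 8.48 CPM in KO libraries and 3.26, 9.93, 8.88, 9.29 and 7.43 CPM in WT libraries, at -0.26 ± 0.28 (edgeR adjusted p = 0.778).

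**Figure D4:**
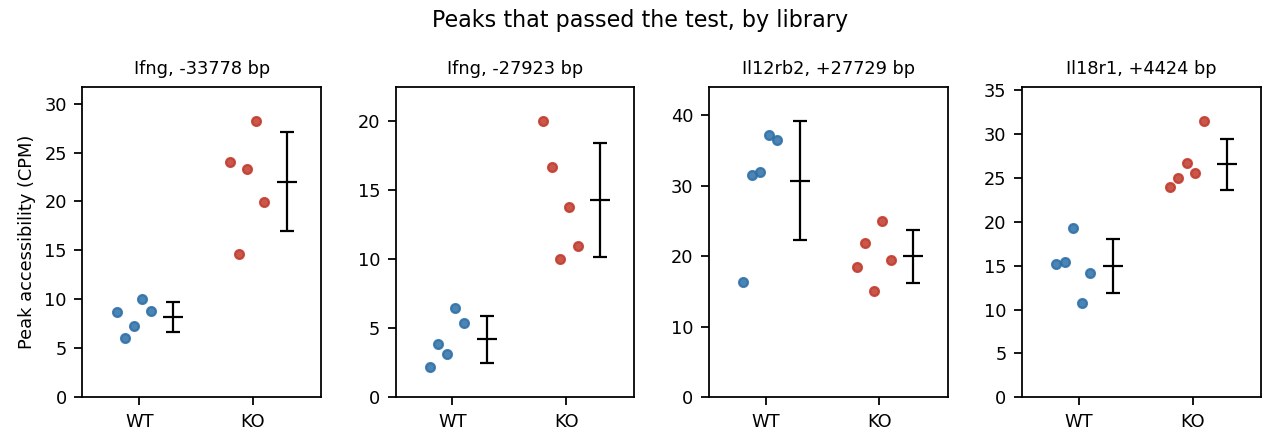
Levels of the 4 Th1 peaks that passed the test (CPM, y axis from 0), 1 point per library with mean and SD beside it, for WT (blue) and KO (red), n = 5 each. KO libraries lie above all WT libraries in both Ifng peaks and in the Il18r1 peak, and in the Il12rb2 peak 1 WT library lies among the KO libraries.

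Levels can be set side by side between genes per length of peak, as a description. Some peaks were narrower than a read of 75 bp, such as Hlx +683 with 57 bp and Ifng +28121 with 60 bp. What this does to levels per kb was not tested. In WT libraries, Il18r1 had the highest summed level, 81.7 ± 8.57 CPM per kb of peak, followed by Il12rb1 with 72.7 ± 11.3, Ifng with 62.0 ± 1.99 and Il18rap with 54.8 ± 18.2 (SD, n = 5). Il12rb2, Tbx21, Eomes and Hlx followed with 48.9 ± 3.55, 48.7 ± 3.11, 47.3 ± 6.79 and 43.5 ± 10.6 CPM per kb. The ranges over WT libraries of every gene and the next in this order overlapped. In KO libraries the order differed: Il18r1 came first with 87.9 ± 5.42, then Ifng with 73.4 ± 5.91 and Il12rb1 with 65.6 ± 2.78 CPM per kb. There every Il18r1 value lay above every Ifng value, and the ranges of Ifng and Il12rb1 overlapped. Hlx was again the lowest, with 34.9 ± 11.1.

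Within 100 kb of the start sites, tested peaks annotated to other genes did not pass at any member (11 at Tbx21, 5 at Eomes, 3 at Hlx, 29 at Il12rb1, 3 at Il12rb2 and 2 at Il18r1), except that the window of Il18rap contains the Il18r1 peak described above. At Ifng no such peak was tested. Among neighbour genes, 8 of 11 were in the annotation, 6 were tested as sums and 1 was higher, beside 2.19% of all tested genes that passed. It was Il1r1, an IL-1 receptor gene on the chromosome of Il18r1, with 16.8, 11.5, 11.7, 13.8 and 8.48 CPM in KO libraries and 5.43, 6.62, 4.18, 7.86 and 2.70 CPM in WT libraries (edgeR adjusted p = 0.00673). Mdm1, the gene annotated beyond the Ifng upstream region, had a peak with a 2.15-fold level in KO and another with a 0.646-fold level, both past the edgeR threshold, which 3.85% of all tested peaks passed.

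The wider IL-12, IL-18 and interferon-gamma pathway list held 33 genes, of which 30 were in the annotation and 26 were tested as sums. Of these, 2 were higher in KO and none lower, beside 2.19% of all genes, and the median log2 fold change was 0.0087 (-0.0051 over all genes). Tyk2, the kinase bound to IL-12Rβ1, had 126, 92.8, 137, 116 and 103 CPM in KO libraries and 85.8, 74.0, 89.3, 83.6 and 79.7 CPM in WT libraries (log2 fold change 0.45 ± 0.08, edgeR adjusted p = 2.05e-04). Ifngr1, the ligand-binding chain of the interferon-gamma receptor, had 251, 278, 283, 271 and 242 CPM in KO libraries and 211, 226, 218, 217 and 218 CPM in WT libraries (log2 fold change 0.26 ± 0.06, edgeR adjusted p = 0.00547). Stat4, which carries the IL-12 signal, had 128 ± 13.9 CPM and 128 ± 9.15 CPM (edgeR adjusted p = 0.981). Of the 132 tested peaks of the list, 3 were higher, of Tyk2 and Ifngr1, and 1 was lower, a share near the 3.85% of all tested peaks that passed. The lower one was a peak of Prf1, the perforin gene, with a 0.528-fold level in KO (edgeR adjusted p = 0.0188). Myd88, Irak1 and Ccl4 were not analysed here.

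Open Ifng and receptor sites are also known from NK cells and memory T cells, which the sort was meant to leave out. Peaks of 9 of 10 CD4 and naive T-cell markers summed to 2414 to 2534 CPM in KO libraries and 2195 to 2395 in WT libraries. The summed level of 3 of 6 NK-cell markers (Klrb1c, Klre1 and Klrk1) was 158 to 202 CPM in KO and 151 to 172 in WT, and no gene passed, though 1 of their 9 tested peaks was higher, beside 2.94% of all tested peaks. For 5 of 6 memory or effector markers it was 281 to 325 and 298 to 335 CPM, with none of 3 tested genes past the threshold. Ccl5 stood at 0.839 CPM in KO and 1.63 in WT, and Cxcr3 at 2.50 and 2.49. CD8 markers (2 of 2) ranged from 23.4 to 33.3 CPM in KO and 26.5 to 31.8 in WT, regulatory T-cell markers (2 of 2) from 150.0 to 207 and 153 to 178, and B-cell markers (2 of 6) from 30.0 to 37.4 and 34.5 to 41.5. Myeloid markers (4 of 6) ranged from 93.3 to 129 CPM in KO and 79.3 to 113 in WT, and Itgax was higher (edgeR adjusted p = 0.0139). No marker was at 0 in every library, the markers not counted here were not analysed, and the part of other cells in the changed Th1 peaks was not tested.

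The genes whose sums followed Ifng most closely over the 10 libraries, among 7399 genes with at least 50 CPM, were Smco4 (Pearson's r of log2 CPM 0.960), Kcna3 (0.928), 4930486L24Rik (0.922), Med30 (0.914) and Tex50 (0.901). These correlations are descriptions: the points share the libraries, their depth and the division into KO and WT. Of these 5 genes, Smco4, Kcna3 and Med30 themselves passed the test as sums, each higher in KO, beside 2.19% of all tested genes that passed. The 5 were picked for following Ifng, whose mean sum was higher in KO, so this is no further result.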

How the data were processed

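ATAC-seq read counts per peak, unscaled whole numbers, were deposited for 10 libraries and 61581 peaks (10 of them mitochondrial), and a second deposited file annotates the other 61571. The submitters' processing notes name Bowtie2 2.3.5, Picard, deepTools, MACS2 2.1.2, ChIPseeker 1.18.0 and DESeq2 1.22.2 among the tools, with mm10 as the build. Beyond these names, the sources used here do not give the handling of duplicates or any shift of reads to the transposase cut. They also do not say whether libraries were pooled for peak calling. Removal of duplicates would cap dense peaks in deep libraries, and a shift would move peak borders by a few bases. Gene sums used deposited symbols, and 7971 peaks without a symbol entered no sum.

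Groups came from the sample titles. The 8 members and the other lists were chosen with earlier results of these data known. Peak counts and gene sums were each fitted across the whole table with edgeR 4.0.16 in R 4.3.3 (quasi-likelihood test, TMM scaling, filterByExpr with a minimum count of 10, no covariate), and p-values were adjusted by Benjamini-Hochberg over 34910 peaks or 12489 genes, with a threshold of 0.05. CPM of peaks and gene sums use 1 scale, the TMM-scaled total in tested peaks. The mitochondrial peaks were among the tested peaks and count in this total. Each SE comes from the F statistic and is approximate, and a small prior count lowers folds of weak peaks. The scripts were tested on simulated data. Peaks were named if they passed, were the tested peak nearest to the start site, or had the smallest adjusted p of those of a gene that did not pass. Alternatives were DESeq2 1.42.0, limma-voom (limma 3.58.1), RLE scaling, no count filter, thinning to the smallest total, leaving out each library or the 3 with the lowest totals, and gene sums over promoter peaks or other peaks alone. Counting libraries within counting noise (chi-square per degree of freedom under 1) as 1 sample was added after seeing the data. Promoter sequences came from RefSeq (GRCm38.p6), and sequences of the peaks were not used here. For the CD4 and naive T-cell markers only the summed level is given, and 1 of them is not reported here singly.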

Additional observations from a re-analysis of the deposited data

Results flagged for a closer look

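In 4 of 48 sets of 5 libraries (the named peaks and gene sums of the Th1 genes in each group), 1 library lay far from the other 4 for the range of its group, where chance alone gives about 1 in 20. The Ifng sum of Sample_2277_WT was 121.6 CPM, with the nearest WT library at 114.4 CPM. The other 3 values were all of Sample_2273_WT, the WT library with the fewest counts in peaks (1025283). Its Il18rap sum was 5.43 CPM (3 and 2 counts in the 2 peaks), with the nearest WT library at 13.5 CPM. Its Il12rb2 peak 27729 bp into the gene stood at 16.3 CPM (15 counts), with the nearest at 31.5 CPM. Its Il12rb2 start-site peak stood at 15.2 CPM (14 counts), with the nearest at 9.38 CPM. Without Sample_2273_WT the fall of the Il12rb2 peak at 27729 bp had a log2 fold change of -0.71 (edgeR adjusted p = 0.000458).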

How the results depend on the processing

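The 2 Ifng peaks that rose and the Il18r1 peak at 4424 bp kept their direction and call wherever they could be tested. Leaving out each library gave edgeR adjusted p from 1.26e-08 to 1.75e-05 for Ifng -33778, 1.96e-06 to 0.000109 for Ifng -27923, 0.000103 to 0.00946 for Il18r1 +4424 and 0.000458 to 0.0393 for Il12rb2 +27729. Member peaks that passed numbered 4 to 5 in these fits. DESeq2 called 587 peaks (529 higher, 58 lower) and 109 genes, and no member peak as lower (Il12rb2 +27729, adjusted p = 0.127). Thinning to the smallest total left 316 peaks, 93 genes, 2 member peaks and 1 higher among them, because the Ifng peaks then had too few counts to be tested. It gave -0.094 for Tbx21 -11603 and -0.042 for the Tbx21 sum, on the log2 scale. Counting libraries within counting noise once gave 156 genes. Promoter peaks alone gave 70 genes, a log2 fold change of 0.35 for Il12rb2 and -0.0059 for Il18r1. Peaks outside promoters alone gave 449 of 6855 tested genes and 1 member gene, Ifng (edgeR adjusted p = 0.0378). No Ifng peak was annotated as promoter, so its counts were those of the main fit. Its log2 fold change was 0.23 with an unadjusted edgeR p of 0.00214, beside 0.24 and 0.00133 in the main fit. The smaller adjusted p came with another set of genes and is no stronger result for Ifng. Leaving out each library gave 0 to 1 member genes, 1096 to 1385 peaks and 191 to 259 genes. It gave log2 fold changes from -0.067 to 0.18 for Il12rb1 -24, -0.097 to 0.075 for Il18r1 +0 and -0.25 to 0.032 for Il18r1 +8191, and limma-voom gave 0.0078 for Il18r1 +0. Where not stated, the cause was not tested. Depth limits these data: 21 of 44 member peaks were too weak to test, and KO differs from WT in tamoxifen as well as in Satb1.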
